A study of Homo sapiens with 18 samples.

Results

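The PARP family genes described here are PARP1, PARP2, PARP3, PARP4, PARP9, PARP10, PARP12, PARP14 and the tankyrase genes TNKS and TNKS2. They are members of the family picked by gene name, by a rule without a measured threshold but with earlier results of these data known, and all 10 were found among the 22136 genes counted at 2 days and the 21276 genes counted at 7 days. RNA-seq was done on C4-2B, an established human prostate cancer cell line with its genotype labelled wild type, in 6 groups of 3 libraries. The study cites reports that C4-2B carries some mutations in BRCA2 and other genes of homologous recombination repair, without being functionally deficient in it. At 2 days the groups were DMSO vehicle and 0.1 μM VIC-1911, an inhibitor of the mitotic kinase AURKA. At 7 days they were DMSO vehicle, 0.1 μM VIC-1911, 1 μM olaparib, an inhibitor of PARP1 and PARP2, and the combination of both drugs at these doses. The values come from 1 cell line, and the library names put vehicle and VIC-1911 of 7 days in one run of numbers and olaparib and the combination in another. A difference between these runs cannot be told apart from the effect of olaparib, whereas VIC-1911 and vehicle share a run, as do olaparib and the combination.

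Genes of this family encode enzymes, or relatives of enzymes, that move ADP-ribose from NAD onto proteins and nucleic acids. PARP1 and PARP2 bind DNA breaks and build chains of poly(ADP-ribose), which recruit repair factors such as XRCC1 until the hydrolase PARG removes the chains. Olaparib blocks this synthesis and holds the proteins on DNA. PARP3 acts at double-strand breaks, PARP4 belongs to the vault particle, the tankyrases modify axins and telomeric proteins, and PARP9, PARP10, PARP12 and PARP14 are genes of the interferon response, most of which attach single ADP-ribose units. The deposited values measure mRNA, so they say nothing of the amount or activity of the proteins.

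The libraries held 3245273 to 7184420 reads on genes at 2 days and 4967931 to 19684208 at 7 days, of which the 10 genes took between 907.7 and 1093 CPM (reads scaled to the total of the library). All 9 luminal prostate markers were present, with KLK3 between 1240 and 2700 FPKM (fragments per kilobase scaled to the depth of the library, the level used below). At 7 days 1 of these 9 rose and 5 fell under VIC-1911 (adjusted p under 0.05 in the test described below). Under olaparib and under the combination 2 rose and 6 fell. Of all genes tested, 52.4%, 54% and 56.6% were called in these 3 comparisons. Of 9 markers of other cell types, PTPRC, CD3E, COL1A2, PECAM1, KRT5 and TP63 had at most 2 counts in any library that counted them. CD3E and KRT5 were not counted at 7 days, where their FPKM was 0. CD68 was present at 5.55 to 10.1 FPKM, COL1A1 at 1.10 to 2.27 FPKM and VWF at 0.173 to 0.754 FPKM. Under olaparib and under the combination CD68 (log2 fold changes 0.41 and 0.59) and COL1A1 (0.28 and 0.43) rose and VWF fell (-1.19 and -1.22), at 2 days COL1A1 fell (-0.49), and their part in the results below was not tested.

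PARP9, PARP12 and PARP14 carry letters of the interferon-stimulated response element next to an annotated start. The core was searched as a pair of GAAA blocks with 2 bases of any kind between them, on both strands of the RefSeq promoter windows of GRCh38.p14, which span 250 bases before to 50 bases after each start. Windows of 7 of the 10 members were used, and these 3 genes held 1 match each. PARP4, PARP10 and TNKS were not among the 7, and whether they hold the core or the E2F site below is not given. A further window of PARP9, at another annotated start, held no match. Of all 35116 windows, 1255 (3.57%) held the core. The sequences are shown because these genes sit in the interferon group whose values follow, and the capitals mark the core, which reads in the opposite direction in PARP9 and PARP12.
PARP9, minus strand of chr3:122564322-122564351: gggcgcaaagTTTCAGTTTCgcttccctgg
PARP14, plus strand of chr3:122680785-122680838: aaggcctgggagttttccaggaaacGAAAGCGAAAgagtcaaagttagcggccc
PARP12, minus strand of chr7:140062952-140062986: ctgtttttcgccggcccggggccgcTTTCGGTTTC
The match in PARP9 is also that of DTX3L, which starts beside it on the other strand. A match is a description of the letters and does not show that a factor binds there. A search for an E2F site (TTTCCCGC or TTTGGCGC, both strands), which 797 windows (2.27%) held, found a match in PARP12 alone among these members.

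PARP1 was the most abundant member in every group. In vehicle at 7 days it stood at 56.9 ± 2.59 FPKM (SD, n = 3) and made up 36.2% of the summed FPKM of the 10 genes, followed by PARP4 at 26.1 ± 1.83 and PARP10 at 23.6 ± 0.900 FPKM. The libraries of PARP4 and PARP10 overlapped in vehicle, so these neighbours are not separated by their spread. TNKS2 was at 17.2 ± 0.543, PARP2 at 10.1 ± 0.457 and TNKS at 7.37 ± 0.487 FPKM. PARP3 (6.67 ± 0.271 FPKM) overlapped TNKS, and PARP12 (5.20 ± 0.535), PARP9 (2.35 ± 0.220) and PARP14 (1.72 ± 0.120 FPKM) were the 3 lowest. Under VIC-1911, olaparib and the combination PARP10 took the rank behind PARP1, with all its libraries above those of PARP4. The share of PARP1 in the summed FPKM was 45.3% under VIC-1911, 43.0% under olaparib and 39.1% under the combination. At 2 days, in a table made separately, PARP1 made up 49.4% in vehicle and 49.8% under VIC-1911, and the order of the means was the same in both groups, as in the plot of levels by library.

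**Figure D1:**
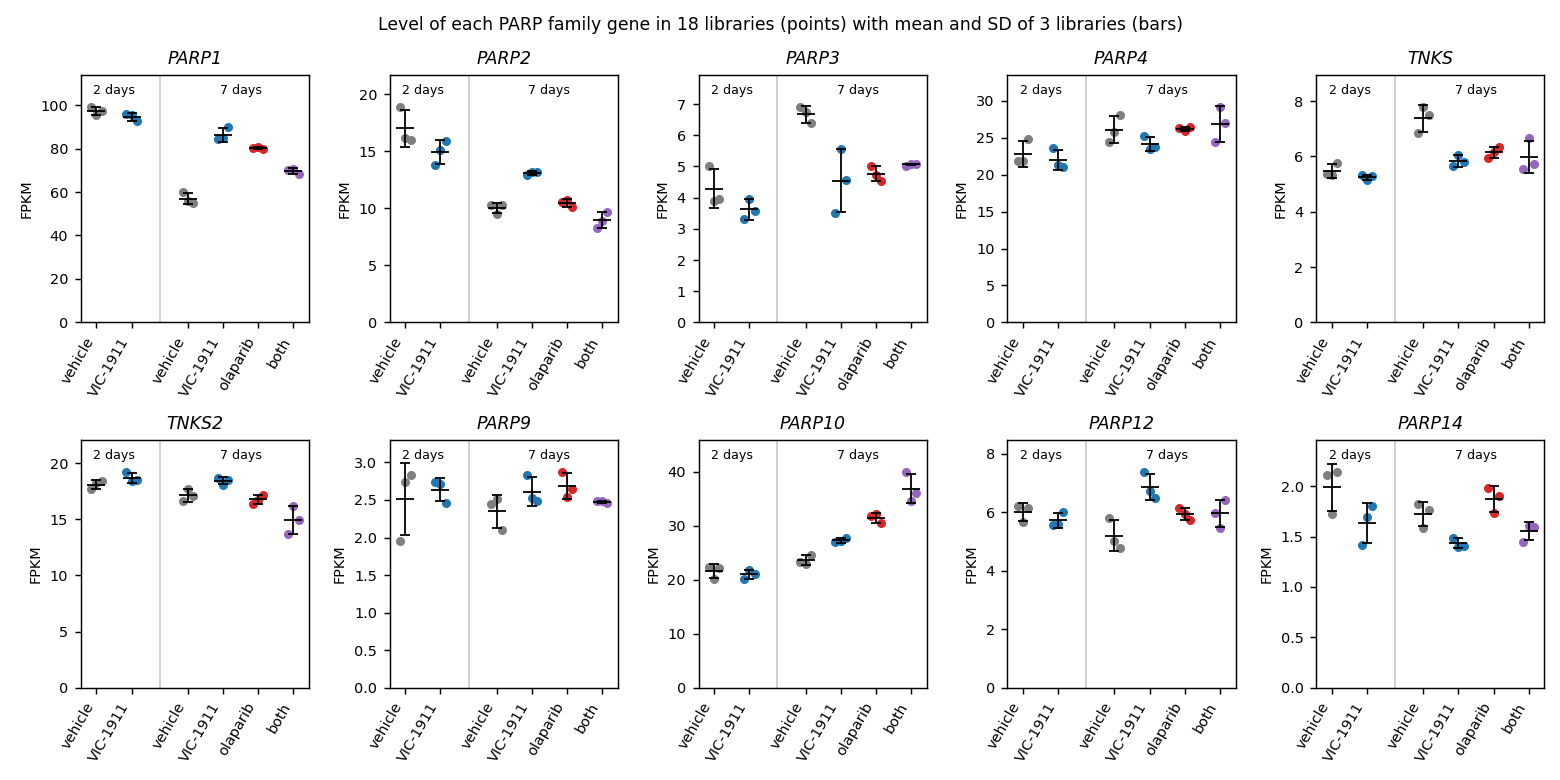
FPKM (y axis, linear, from 0) of each of the 10 genes in the 18 libraries (points) by group, with bars for the mean and SD of 3 libraries. At 7 days PARP1 was higher in every treated library than in vehicle (68.1 to 90.1 against 55.1 to 59.9 FPKM), and PARP10 stood at 34.6 to 39.9 FPKM under both drugs against 22.9 to 24.6 in vehicle.

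After 2 days of VIC-1911, which asks what inhibition of AURKA does early, no member of the family passed the test at an adjusted p under 0.05 (edgeR's quasi-likelihood test, Benjamini-Hochberg adjustment over 12241 genes), beside 14.7% of all genes tested (7.5% higher, 7.19% lower), and none reached 1.5-fold, beside 2.16%. PARP14 alone had an unadjusted p under 0.05 (1 of 10 genes), and DESeq2 and limma also called 0 members. The log2 fold changes lay between -0.31 for PARP14 (adjusted p = 0.141) and 0.09 for TNKS2 (adjusted p = 0.282), with a median of -0.04, where that of all genes was near 0 (-0.00337). For PARP1, the 3 vehicle libraries had 99.2, 95.3 and 97.4 FPKM and the 3 VIC-1911 libraries 95.7, 95.6 and 92.5 FPKM. These ranges overlapped, and the 95% interval of the log2 fold change, -0.11 to 0.07, holds the values that the data allow. PARP2 stood at 18.9, 16.2 and 16.0 FPKM in vehicle and at 13.8, 15.1 and 15.9 FPKM under VIC-1911 (log2 fold change -0.17, 95% interval -0.36 to 0.02). In CPM scaled by TMM, 1 member (TNKS2) had all VIC-1911 libraries above vehicle and 1 (PARP3) all below, beside 30.6% of all genes whose groups did not overlap.

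After 7 days of VIC-1911, 4 members rose and 4 fell (adjusted p under 0.05, beside 52.4% of the 14409 genes tested, 26.6% higher and 25.8% lower). PARP1, PARP2, PARP10 and PARP12 rose, PARP3, PARP4, PARP14 and TNKS fell, and PARP9 and TNKS2 did not pass. Under olaparib, 2 members rose (PARP1 and PARP10) and 2 fell (PARP3 and TNKS), beside 54% of all genes (28.1% higher, 25.9% lower). Under the combination the same 2 genes rose and TNKS2 fell as well as PARP3 and TNKS, beside 56.6% of all genes (28.6% higher, 28% lower). Thus 8, 4 and 5 of 10 members were called, and whether these counts differ from the shares of all genes was not tested. No member reached a 2-fold change in any of these comparisons, beside 6.89%, 7.16% and 8.54% of all genes. The median log2 fold change of the members was 0.06, 0.07 and -0.05, and that of all genes lay between -0.01 and 0.01. In scaled CPM the treated libraries of 7, 4 and 5 members did not overlap those of vehicle, beside 58.8%, 58.8% and 59.4% of all genes. PARP1 and PARP10 rose and PARP3 and TNKS fell in all 3 comparisons, 2 of 10 members each way, beside 16.8% of all genes tested that rose and 17.3% that fell in all 3. These comparisons share the vehicle libraries, and both shares lie near those of the members. In bulk RNA, a change in the share of cells that express a gene and a change in its RNA per cell cannot be told apart.

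**Figure D2:**
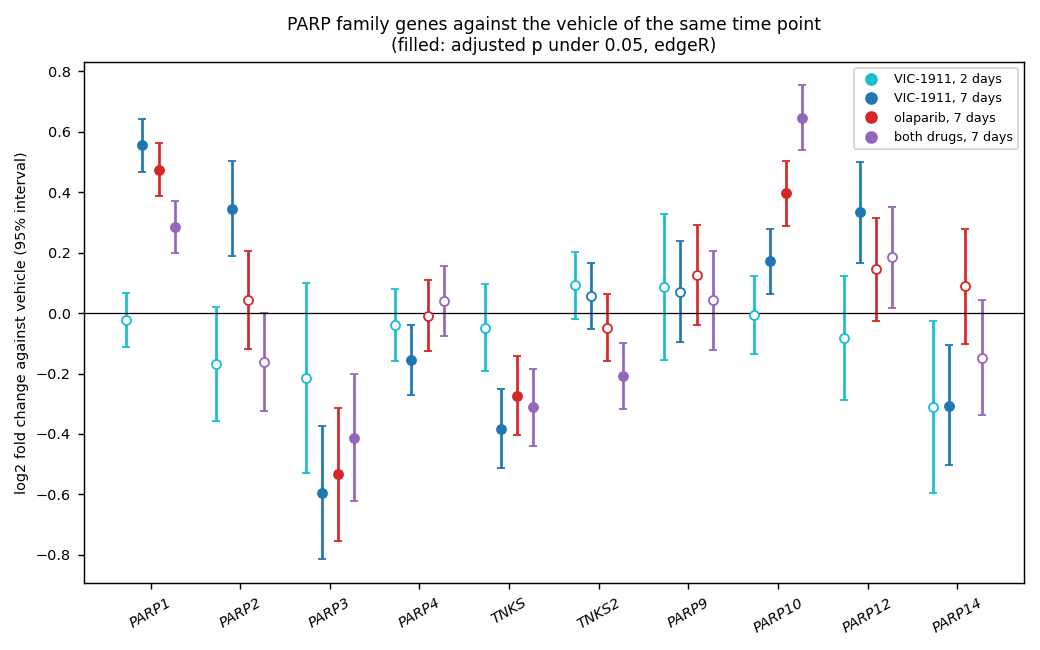
Log2 fold change against the vehicle of the same time point (y axis) for each gene (x axis), with the 95% interval of the edgeR fit. Filled points have an adjusted p under 0.05, and PARP1 and PARP10 lay above 0 and PARP3 and TNKS below 0 in all 3 comparisons at 7 days.

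PARP1, at chr1:226360210-226408154 on the minus strand of GRCh38, encodes the main sensor of DNA breaks of the family. At 7 days its 3 vehicle libraries had 59.9, 55.9 and 55.1 FPKM. The VIC-1911 libraries had 84.4, 84.7 and 90.1 FPKM, the olaparib libraries 80.3, 80.9 and 79.6 FPKM and the combination libraries 70.1, 70.8 and 68.1 FPKM. Every treated library was above every vehicle library, and the combination libraries lay below those of either single drug. The log2 fold change against vehicle was 0.56 ± 0.04 (SE) under VIC-1911 (adjusted p = 4.37e-12, edgeR), 0.48 ± 0.04 under olaparib (adjusted p = 1.28e-10) and 0.28 ± 0.04 under the combination (adjusted p = 1.38e-06). The combination was lower than VIC-1911 by 0.27 on the log2 scale (log2 fold change -0.27 ± 0.04, adjusted p = 5.49e-06) and lower than olaparib (-0.19 ± 0.04, adjusted p = 0.00277). All calls of PARP1 held in each alternative.

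PARP2, at chr14:20343615-20357904 on the plus strand, encodes the closest partner of PARP1 in break detection. Its vehicle libraries had 10.3, 9.53 and 10.3 FPKM, and the VIC-1911 libraries 12.9, 13.2 and 13.2 FPKM. Olaparib gave 10.6, 10.7 and 10.1 FPKM and the combination 8.32, 8.86 and 9.72 FPKM. PARP2 was thus higher than vehicle under VIC-1911 alone, while the combination libraries were below every VIC-1911 library. The log2 fold change was 0.34 ± 0.08 under VIC-1911 (adjusted p = 0.00037, edgeR) and 0.04 ± 0.08 under olaparib (adjusted p = 0.666). Against vehicle the combination gave -0.16 ± 0.08 (adjusted p = 0.0811), a value that passed without vehicle library 2 (-0.22, adjusted p = 0.0465) or without combination library 3 (-0.23, adjusted p = 0.0277), and with limma on log2(FPKM + 0.1) and log2(FPKM + 1) (-0.17 and -0.15, adjusted p = 0.0336 and 0.0353). With limma the combination was also lower than olaparib (adjusted p = 0.0403 and 0.0419), which edgeR did not call (-0.21, adjusted p = 0.0894). Against VIC-1911 the combination was lower by a log2 fold change of -0.51 ± 0.08 (adjusted p = 3.09e-06). Antisense non-coding transcripts in the annotation overlap PARP2, and as the strand setting of the counting is not given in the sources used here, its counts are uncertain.

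PARP3, at chr3:51942345-51948867 on the plus strand, encodes an enzyme that adds single ADP-ribose units near double-strand breaks, and it moved against PARP1. The vehicle libraries had 6.91, 6.74 and 6.38 FPKM. Under VIC-1911 they spread over 3.52, 5.55 and 4.55 FPKM, under olaparib they had 5.03, 4.74 and 4.54 FPKM, and under the combination 5.03, 5.09 and 5.07 FPKM. All 9 treated libraries lay below all vehicle libraries, with the widest spread under VIC-1911. The log2 fold changes were -0.59 ± 0.11 (adjusted p = 3.02e-05, edgeR), -0.53 ± 0.11 (adjusted p = 0.000113) and -0.41 ± 0.10 (adjusted p = 0.00119) under VIC-1911, olaparib and the combination. The combination did not pass against VIC-1911 (0.18, adjusted p = 0.187), but did without VIC-1911 library 2 (0.34, adjusted p = 0.0168). Of 11321 genes with at least 1 FPKM on average, LINC00909, ZNF688 and FBXL8 had log2 fold changes most like those of PARP3 over the 4 comparisons with vehicle, with root mean square differences of 0.0261, 0.0313 and 0.0325.

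PARP4, at chr13:24420931-24512778 on the minus strand, encodes the vault-associated member and changed little. The vehicle libraries had 24.5, 25.8 and 28.1 FPKM and those of VIC-1911 25.2, 23.5 and 23.8 FPKM, so that the groups overlapped. The log2 fold change of -0.15 ± 0.06 (adjusted p = 0.0241, edgeR) was no longer past the threshold without vehicle library 3 (-0.11), VIC-1911 library 2 (-0.14) or VIC-1911 library 3 (-0.14). It was also lost with library size only (-0.13, adjusted p = 0.0582) and with limma on log2(FPKM + 0.1) and log2(FPKM + 1) (adjusted p = 0.163 and 0.165), 6 of 15 alternatives in all. Olaparib gave 26.3, 25.9 and 26.5 FPKM and the combination 24.4, 29.2 and 27 FPKM, and neither passed (-0.01, adjusted p = 0.915, and 0.04, adjusted p = 0.56). The combination was above VIC-1911 by 0.19 ± 0.06 (adjusted p = 0.00595), and this call was lost without combination library 2 (0.13, adjusted p = 0.0544) and with limma at both pseudocounts (0.15 and 0.15, adjusted p = 0.0788 and 0.0795). The pseudogene TPTE2P6, antisense to the whole gene, had at most 5 counts in any library.

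The tankyrase genes TNKS, on chromosome 8, and TNKS2, at chr10:91798426-91865475 on the plus strand, encode poly(ADP-ribose) polymerases with ankyrin repeats that act on axins and on telomeres. TNKS had 6.84, 7.79 and 7.50 FPKM in vehicle, 5.65, 6.05 and 5.80 FPKM under VIC-1911, 5.93, 6.17 and 6.33 FPKM under olaparib and 5.54, 6.65 and 5.74 FPKM under the combination. All treated libraries were below the vehicle libraries. TNKS and TNKS2 each contain an annotated pseudogene on the other strand, so a part of their counts is uncertain. TNKS fell by 0.38 ± 0.06 (adjusted p = 9.74e-06, edgeR), 0.27 ± 0.06 (adjusted p = 0.000636) and 0.31 ± 0.06 (adjusted p = 0.000102) on the log2 scale. The combination did not pass against either single drug (0.07, 95% interval -0.06 to 0.20, against VIC-1911, and -0.04, 95% interval -0.17 to 0.09, against olaparib).

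TNKS2 had 16.6, 17.7 and 17.1 FPKM in vehicle and 13.7, 16.2 and 14.9 FPKM under the combination, with 18.7, 18.1 and 18.5 FPKM under VIC-1911 and 16.4, 16.7 and 17.2 FPKM under olaparib. The combination libraries alone lay below all vehicle libraries. TNKS2 fell under the combination by 0.21 ± 0.05 on the log2 scale (adjusted p = 0.00143, edgeR), and did not pass under VIC-1911 (0.06, adjusted p = 0.391) or olaparib (-0.05, adjusted p = 0.475). Against VIC-1911 the combination was lower (-0.27 ± 0.05, adjusted p = 0.00017). Against olaparib it was just past the threshold (-0.16 ± 0.05, adjusted p = 0.0497), and 12 of 15 alternatives lost this call. Without olaparib library 1, 2 or 3 the value was -0.17, -0.17 or -0.14, and without combination library 1 or 3 it was -0.10 or -0.17.

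PARP10, on chromosome 8, encodes an enzyme that adds single ADP-ribose units and gave the largest change of the 10 genes against vehicle. Its vehicle libraries had 23.3, 22.9 and 24.6 FPKM. They were followed by 26.9, 27.1 and 27.8 FPKM under VIC-1911, 31.7, 32.1 and 30.4 FPKM under olaparib and 39.9, 34.6 and 36.1 FPKM under the combination, with no overlap between any of the 4 groups. The log2 fold change was 0.17 ± 0.05 under VIC-1911 (adjusted p = 0.00787, edgeR), 0.40 ± 0.05 under olaparib (adjusted p = 2.57e-07) and 0.65 ± 0.05 under the combination (adjusted p = 7.7e-12). The combination was above VIC-1911 (0.48 ± 0.05, adjusted p = 8.82e-09) and above olaparib (0.25 ± 0.05, adjusted p = 0.00112). Without vehicle library 2 the VIC-1911 value was 0.13 (adjusted p = 0.0762). The genes most like PARP10 over the 4 comparisons with vehicle were CD68, ANXA4 and IFITM3, with root mean square differences of 0.0329, 0.0427 and 0.0489, and IFITM3 is on the interferon list below. CD68 was also on the list of leukocyte markers, whose other genes PTPRC and CD3E had at most 2 counts in any library that counted them. GRINA, at 176 to 192 FPKM on average at 7 days, lies antisense to PARP10 and shares 324 exonic bases with it (5.37% of PARP10 exons), so the counts of PARP10 are uncertain. The log2 fold change of GRINA was -0.18, -0.07 and -0.02 in the same 3 comparisons, and that of SPATC1, which shares 197 exonic bases, was -1.11, -0.94 and -0.92. GRINA and SPATC1 were named after their values were seen.

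PARP12, at chr7:140023749-140062951 on the minus strand, encodes a zinc finger member. It had 5.80, 5.02 and 4.78 FPKM in vehicle, 7.37, 6.71 and 6.50 FPKM under VIC-1911, 6.15, 5.93 and 5.72 FPKM under olaparib and 5.99, 5.47 and 6.41 FPKM under the combination. VIC-1911 libraries were above all vehicle libraries, and those of the other treatments overlapped vehicle. The log2 fold change was 0.33 ± 0.08 under VIC-1911 (adjusted p = 0.00101, edgeR), 0.14 ± 0.08 under olaparib (adjusted p = 0.145) and 0.18 ± 0.08 under the combination (adjusted p = 0.054). Without vehicle library 1 the values for olaparib and the combination were 0.22 (adjusted p = 0.048) and 0.26 (adjusted p = 0.0164), and without combination library 2 the latter was 0.23 (adjusted p = 0.0194). The combination value also passed with upper-quartile scaling (0.20, adjusted p = 0.0341), library size only (0.23, adjusted p = 0.015) and the replicate number as a block (0.18, adjusted p = 0.0462), 5 of 15 alternatives in all.

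PARP14, at chr3:122680839-122730840 on the plus strand, encodes a large member with macrodomains, and PARP9, at chr3:122527924-122564577 on the minus strand, the partner of the ubiquitin ligase DTX3L. PARP14 had 1.82, 1.59 and 1.76 FPKM in vehicle, 1.49, 1.40 and 1.41 FPKM under VIC-1911, 1.98, 1.73 and 1.90 FPKM under olaparib and 1.45, 1.61 and 1.60 FPKM under the combination. It fell under VIC-1911 (-0.31 ± 0.10, adjusted p = 0.00908, edgeR), with all libraries below vehicle, a call that limma on log2(FPKM + 0.1) lost (-0.25, adjusted p = 0.0552), and not past the threshold under olaparib (0.09, adjusted p = 0.442) or the combination (-0.15, adjusted p = 0.183). PARP9 had 2.44, 2.51 and 2.10 FPKM in vehicle and 2.46 to 2.87 FPKM in the 9 treated libraries, and passed in none of the 8 comparisons. Its log2 fold changes against vehicle at 7 days were 0.07, 0.13 and 0.04, with 95% intervals that reached up to 0.24, 0.29 and 0.21. PARP9 and DTX3L share 139 exonic bases on opposite strands, so their counts are uncertain.

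DTX3L rose at 7 days where PARP9 did not pass. It went from 4.30 ± 0.665 FPKM in vehicle to 5.38 ± 0.511 under VIC-1911, 6.14 ± 0.351 under olaparib and 6.03 ± 0.205 under the combination (log2 fold changes 0.23, 0.44 and 0.44, adjusted p = 0.0204, 4.43e-05 and 2.92e-05, edgeR). The difference between the responses of DTX3L and PARP9 was not tested. IRF9, a transcription factor of the interferon response, stood at 4.04 ± 0.830 FPKM in vehicle and 3.62 to 4.17 FPKM on average under treatment and did not pass. ISG15, a ubiquitin-like protein of the response, rose already at 2 days (0.40, adjusted p = 0.00424) and at 7 days by 0.64, 0.80 and 1.08 (adjusted p = 1e-06, 1.64e-08 and 1.17e-11). IFIT2, which encodes an RNA-binding antiviral protein, went from 0.101 ± 0.00372 FPKM in vehicle to 1.19 ± 0.301 under the combination (log2 fold change 3.54, adjusted p = 1.79e-11). Of the 34 genes on the interferon list, which holds no PARP gene, 28 were tested at 7 days. Of these 14 rose and 3 fell under VIC-1911, 15 rose and 2 fell under olaparib, and 16 rose and 1 fell under the combination, with median log2 fold changes of 0.29, 0.40 and 0.59, beside 26.6%, 28.1% and 28.6% of all genes that rose and 25.8%, 25.9% and 28% that fell. At 2 days 1 of 20 tested genes rose and none fell, beside 14.7% of all genes called. Of the 4 interferon-responsive PARP genes, PARP10 rose in all 3 comparisons at 7 days, PARP12 in 1, and PARP9 and PARP14 in none. PARP14 fell under VIC-1911, and PARP9 was not called in either direction.

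**Figure D3:**
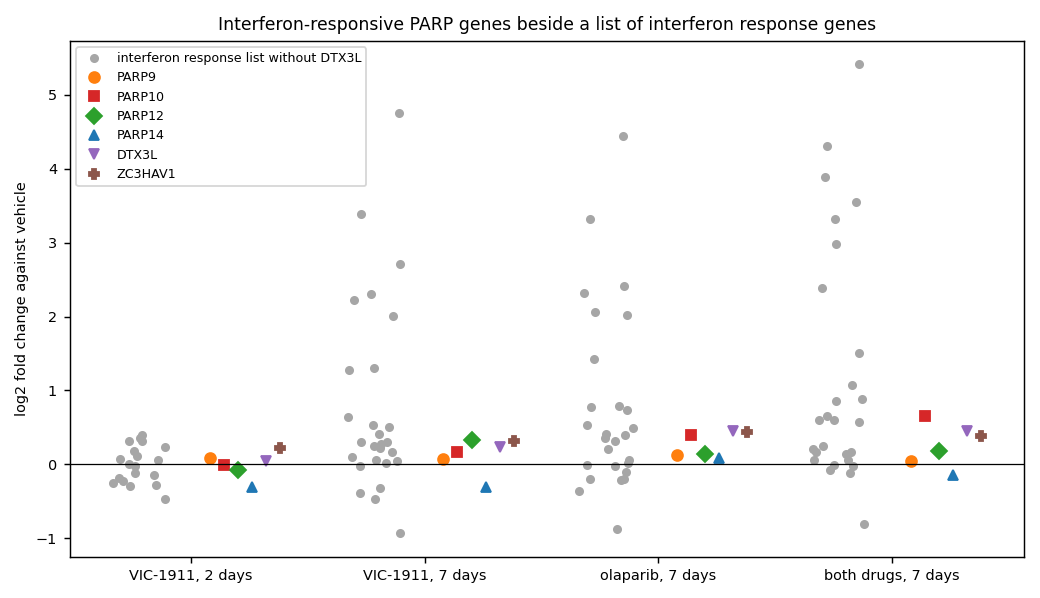
Log2 fold change against vehicle (y axis) in the 4 comparisons for tested genes of the interferon list (grey points, spread sideways for clarity), PARP9, PARP10, PARP12, PARP14, DTX3L and ZC3HAV1. Under both drugs the list lay between -0.805 and 5.42, with a median of 0.59, and the 4 PARP genes lay between -0.15 and 0.65.

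The combination was next set against each single drug. Against VIC-1911, 2 members were higher (PARP4 and PARP10) and 3 lower (PARP1, PARP2 and TNKS2), beside 42.9% of all genes tested (20.7% higher, 22.2% lower). Against olaparib, PARP10 was higher and PARP1 and TNKS2 were lower, beside 11.5% of all genes (4.55% higher, 6.95% lower). None of them reached 2-fold, beside 4.05% and 0.382% of all genes. In scaled CPM the libraries of 7 members did not overlap between the combination and olaparib, 2 above and 5 below, beside 27.5% of all genes, and those of 5 members did not overlap between the combination and VIC-1911, beside 50.2%. PARP2 and PARP14 were among the 5 that lay below olaparib, with log2 fold changes of -0.21 (adjusted p = 0.0894, edgeR) and -0.24 (adjusted p = 0.0988).

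The interaction asks whether VIC-1911 acted differently with olaparib than without it, as the difference between combination and olaparib minus the difference between VIC-1911 and vehicle. These differences come from different runs of library numbers, so an effect of VIC-1911 that differs between runs cannot be told apart from an interaction. The interaction passed for 7 members, 3 higher and 4 lower, beside 44% of all genes tested (21% higher, 22.9% lower). PARP1 had the largest value, -0.74 ± 0.06 (adjusted p = 2.22e-11, edgeR), since VIC-1911 raised it by 0.56 without olaparib and lowered it by a log2 fold change of -0.19 with olaparib. PARP2 had -0.55 ± 0.11 (adjusted p = 0.000142), with 0.34 for VIC-1911 without olaparib and -0.21 with olaparib, of which the second did not pass (adjusted p = 0.0894). PARP3 went the other way with 0.71 ± 0.15 (adjusted p = 0.000342), as its fall under VIC-1911 was not seen on top of olaparib, where the log2 fold change was 0.12. TNKS had 0.34 ± 0.09 (adjusted p = 0.00276), TNKS2 -0.22 ± 0.08 (adjusted p = 0.0207), PARP12 -0.29 ± 0.11 (adjusted p = 0.0373) and PARP4 0.20 ± 0.08 (adjusted p = 0.0404). PARP10 did not pass (0.08, 95% interval -0.07 to 0.23), and the values of its single drugs, 0.17 and 0.40, stand beside 0.65 for both. The calls of PARP4, PARP12 and TNKS2 were lost in 11, 10 and 4 of 20 alternatives. Leaving out 1 library lost PARP4 with 8 of the 12 libraries (values 0.14 to 0.21), PARP12 with 7 (-0.29 to -0.24) and TNKS2 without vehicle library 1 (-0.17), olaparib library 3 (-0.19) or combination library 1 (-0.14).

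The response to VIC-1911 also differed between the time points. The effect at 7 days less that at 2 days was higher for PARP1 (0.56 ± 0.06, adjusted p = 6.82e-10, edgeR), PARP2 (0.50 ± 0.12, adjusted p = 0.00102) and PARP12 (0.40 ± 0.13, adjusted p = 0.0187) and lower for TNKS (-0.35 ± 0.09, adjusted p = 0.00338). These were 3 members higher and 1 lower, beside 28.8% of the 13832 genes tested (14.6% higher, 14.2% lower). For PARP3 the value was -0.39 (adjusted p = 0.144), and without VIC-1911 library 2 of 7 days it was -0.52 (adjusted p = 0.0379). For PARP10 the value was 0.16 (adjusted p = 0.136), and it passed with library size only (0.22, adjusted p = 0.0389) and with limma on log2(FPKM + 0.1) and log2(FPKM + 1) (0.25 and 0.24, adjusted p = 0.0192 and 0.0186). PARP12 was no longer past the threshold without vehicle library 3 of 2 days (0.37, adjusted p = 0.0601) or VIC-1911 library 1 of 2 days (0.36, adjusted p = 0.0581). The call of TNKS was lost with limma on log2(FPKM + 0.1) and log2(FPKM + 1) (-0.27 and -0.24, adjusted p = 0.0554 and 0.0537). In mean FPKM, PARP1 stood at 97.3 in vehicle and 94.6 under VIC-1911 at 2 days, and at 56.9 and 86.4 at 7 days. In the same order PARP2 had 17, 14.9, 10.1 and 13.1, PARP12 6.01, 5.72, 5.2 and 6.86, and TNKS 5.48, 5.25, 7.37 and 5.83. Under VIC-1911 the means of PARP1 and PARP2 were lower at 7 days than at 2 days, and those of PARP12 and TNKS higher. Levels were not tested between the tables. The time points were counted and scaled in separate tables and differ in library numbers, so a difference in time and in table cannot be told apart.

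**Figure D4:**
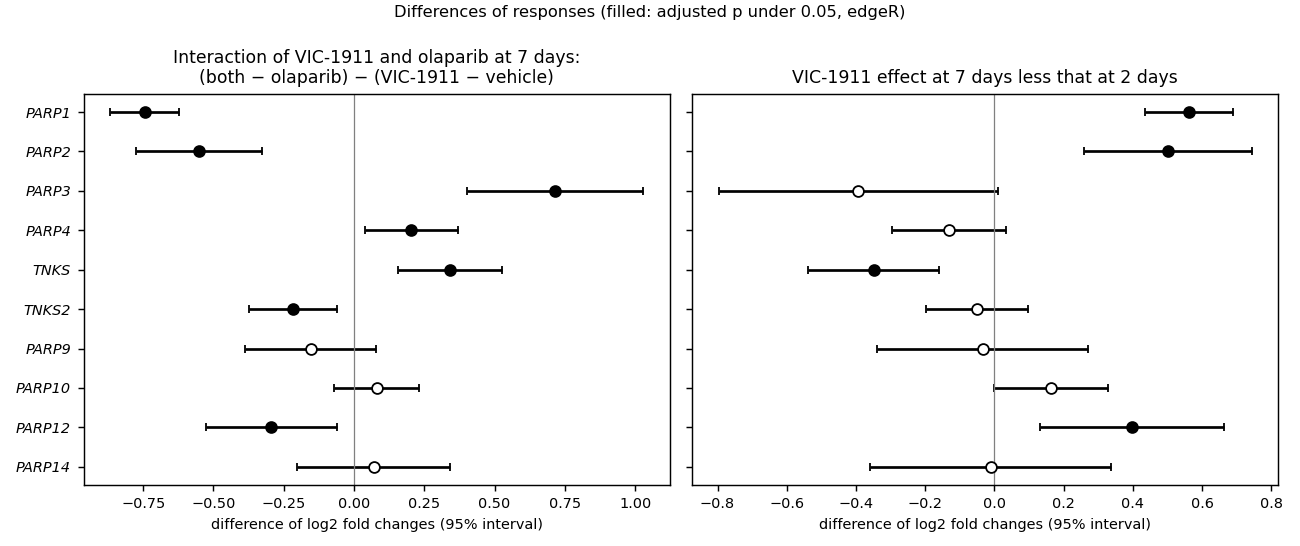
Difference of log2 fold changes (x axis, with 95% interval) for each gene, for the interaction of the drugs (left) and for VIC-1911 at 7 days less 2 days (right), with filled points at an adjusted p under 0.05. PARP1 and PARP2 lay at -0.74 and -0.55 on the left and at 0.56 and 0.50 on the right.

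Of 7 other genes of the family, PARP6, PARP8, PARP11, PARP15, PARP16, TIPARP and ZC3HAV1, 5 were tested. PARP6 had at most 9 counts and PARP15 at most 3 counts in any library that counted them. PARP8, which encodes a member that adds single ADP-ribose units, had 1.48, 1.42 and 1.56 FPKM in vehicle at 7 days and 0.676 to 0.873 FPKM in all 9 treated libraries. Its log2 fold change was -0.96 ± 0.12 under VIC-1911 (adjusted p = 9.75e-08, edgeR), -1.09 ± 0.12 under olaparib (adjusted p = 1.19e-08) and -0.93 ± 0.12 under the combination (adjusted p = 7.85e-08), larger in size than for any of the 10 members. At 2 days PARP8 did not pass (0.18, adjusted p = 0.662), and the difference between time points was -1.15 (adjusted p = 0.000294). The interaction of the drugs was 1.11 (adjusted p = 8.38e-06). ZC3HAV1, which encodes an antiviral zinc finger protein without catalytic activity, was the only one of the 15 tested family genes past the threshold at 2 days, at 13.6 ± 1.07 FPKM in vehicle and 15.4 ± 0.821 under VIC-1911 (0.22, adjusted p = 0.00843). At 7 days it rose from 10.4 ± 0.206 FPKM to 13.5 ± 0.395, 14.4 ± 0.290 and 13.7 ± 0.971 FPKM (log2 fold changes 0.32, 0.44 and 0.38). TIPARP, PARP11 and PARP16 passed in none of the 8 comparisons, with log2 fold changes between -0.44 and 0.28. PARP8, PARP11, PARP16, TIPARP and ZC3HAV1 each overlap another annotated gene, as do IRF9, ISG15 and XRCC1, so their counts are uncertain.

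The counts of the lists of genes around the enzymes at 7 days stand beside 52.4%, 54% and 56.6% of all genes called under VIC-1911, olaparib and the combination, of which about as many rose as fell (26.6%, 28.1% and 28.6% higher and 25.8%, 25.9% and 28% lower). Of 9 tested partners of PARP1 and PARP2, 4 rose and 1 fell under VIC-1911, 3 rose under olaparib, and 2 rose and 1 fell under the combination. XRCC1, the scaffold of single-strand break repair, rose under VIC-1911 (0.31, adjusted p = 0.025, edgeR) and olaparib (0.35, adjusted p = 0.0111) and not under the combination (-0.05, adjusted p = 0.722), with an interaction of -0.71 (adjusted p = 0.000582). The vehicle libraries of XRCC1, at 3.98 to 6.04 FPKM, overlapped those of each treatment. TIMELESS, a replication fork protein that binds PARP1, went from 8.99 ± 0.986 FPKM to 19.0 ± 0.404, 14.1 ± 0.900 and 10.3 ± 0.632 FPKM, with an interaction of -1.45 (adjusted p = 5.4e-14). HPF1, which directs PARP1 and PARP2 to serine residues, stood at 7.96 to 8.96 FPKM on average in the 4 groups and did not pass. APTX, which clears blocked DNA ends, rose under all treatments (0.17, 0.33 and 0.36, adjusted p = 0.0332, 8.85e-05 and 1.97e-05). The ligase gene LIG3 fell under the combination (-0.23, adjusted p = 0.0013).

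Of 9 tested ADP-ribose hydrolases, 3 rose and 3 fell under VIC-1911, 2 rose and 3 fell under olaparib, and 2 rose and 2 fell under the combination. PARG, the main hydrolase of the chains, rose slightly under all treatments (0.15, 0.15 and 0.19, adjusted p = 0.0295, 0.0265 and 0.00509, edgeR), and ADPRS, which removes ADP-ribose from serine, under olaparib and the combination (0.21 and 0.31). PARG overlaps TIMM23B on the other strand over 28155 bases, so its counts are uncertain. ENPP1, an ectoenzyme, fell at 2 days (-0.57, adjusted p = 0.000934) and at 7 days (-0.22, -0.48 and -0.98). Of 12 tested tankyrase partners, 3 rose and 3 fell, 4 rose and 2 fell, and 5 rose and 3 fell under the 3 treatments. TNKS1BP1, which binds tankyrase, fell like TNKS (-0.38, -0.48 and -0.52), while AMOT (0.49, 0.68 and 0.58) rose under all 3 and AMOTL1 under olaparib and the combination (0.98 and 1.09). RNF146, the ubiquitin ligase that reads tankyrase products, rose under the combination (0.22, adjusted p = 0.041).

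Of 11 tested genes of NAD supply, 2 rose and 5 fell under VIC-1911, 4 rose and 4 fell under olaparib, and 5 rose and 4 fell under the combination. NADK2, the mitochondrial NAD kinase, fell under all treatments (-0.49, -0.41 and -0.65), its cytosolic relative NADK rose (0.34, 0.37 and 0.41), and NAPRT, which makes NAD from nicotinic acid, rose under olaparib and the combination (0.27 and 0.51). Of 15 tested genes tied to the response to PARP inhibitors, 9 rose and 2 fell under VIC-1911, 8 rose and 2 fell under olaparib, and 5 rose and 3 fell under the combination. Compared with VIC-1911, 7 of these genes were lower under the combination and none higher, beside 22.2% of all genes lower and 20.7% higher. Compared with olaparib, 5 were lower and none higher, beside 6.95% lower and 4.55% higher. TP53BP1, which limits end resection, fell under all 3 treatments (-0.38, -0.28 and -0.33), as did the kinase gene ATM (-0.37, -0.18 and -0.26). ABCG2, a drug efflux pump, rose from 0.0369 ± 0.0242 to 0.160 ± 0.0274 FPKM under the combination (1.91, adjusted p = 0.00228, edgeR), at a low level in every group. Its mean was 0.146 FPKM under VIC-1911 and 0.15 FPKM under olaparib, so the level was not particular to the combination. At 2 days it stood at 0.274 FPKM in vehicle and under VIC-1911.

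**Figure D5:**
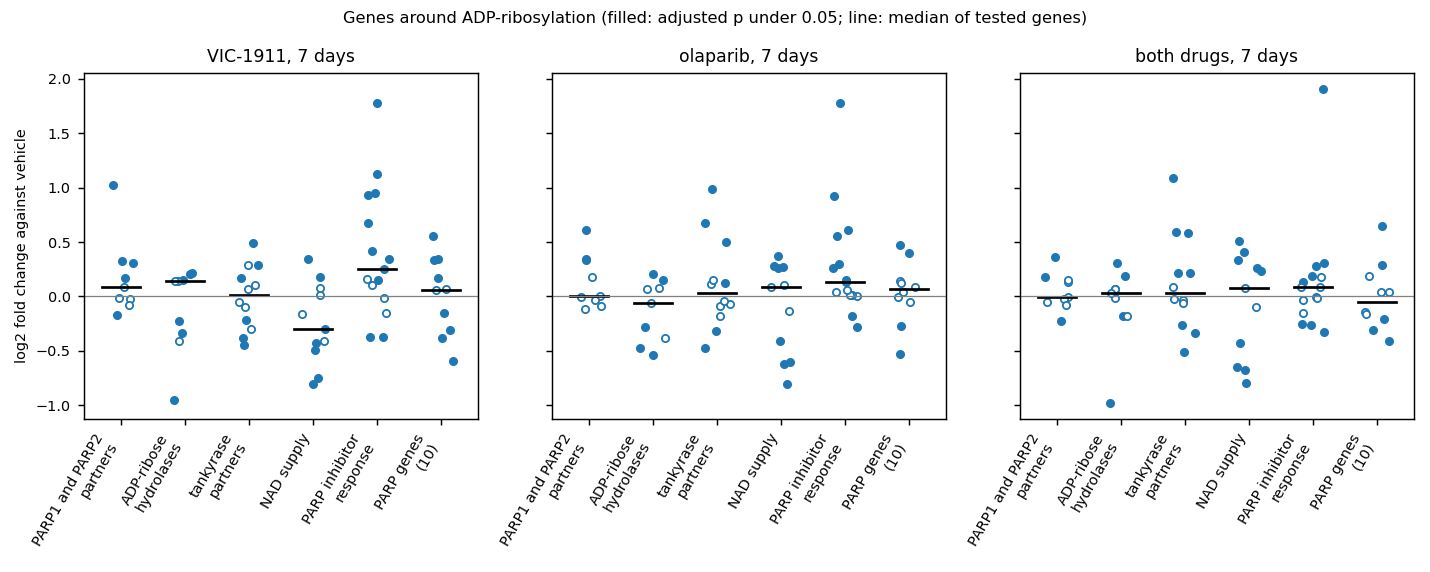
Log2 fold change against vehicle at 7 days (y axis) for the tested genes of each list (x axis), 1 panel per treatment, with points spread sideways for clarity, filled at an adjusted p under 0.05, and a line at the median. The 10 PARP genes lay between -0.59 and 0.65 in all panels, and the median of the PARP inhibitor response list was 0.25, 0.13 and 0.09.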

How the data were processed

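Poly(A) RNA was sequenced in 18 libraries. Per the labels and the methods of the study, the authors trimmed the reads with Trimmomatic and aligned them with STAR (2.6.0 in the submitters' processing notes) to hg38. The authors deposited raw counts per gene, without normalization, and FPKM values computed with an in-house script, 1 table of each per time point. The gene annotation, strand setting and treatment of shared reads are not given in the sources used here, which leaves counts of overlapping genes uncertain. At 7 days each member's FPKM values followed its counts up to 1 factor per library (ratio of highest to lowest 1.07 for every member), and at 2 days the ratio reached 1.11, so tests used counts and FPKM served as levels. Each table held 28 gene names turned into dates.

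Tests on the counts used edgeR 4.0.16 under R 4.3.3 (TMM, quasi-likelihood test, two-sided), on genes with 10 or more counts in 3 or more libraries, 1 fit per time point and 1 for the difference between time points, adjusted by Benjamini-Hochberg over all genes tested. Members were called at an adjusted p under 0.05, with a second rule of at least 1.5-fold at 2 days or 2-fold at 7 days. The members, picked by gene name, and the gene lists were chosen with earlier results of these data known. Genes named are the family, 8 partners set by name, up to 3 genes per list with the smallest adjusted p under the combination, and the 3 genes most like PARP3 and PARP10. Of these, 1 gene is not reported here. The script was tested on simulated data with changes of 1.5-fold and 2-fold. At 1.5-fold it recovered 79 of 100 for VIC-1911 at 7 days. It recovered 64 of 100 for the interaction and for the difference between time points. Changes below 1.5-fold, as for most members, were not simulated. Nothing states whether libraries came from separate cultures on separate days, so p-values measure the spread between these libraries. Replicate pairs differed by more than sampling noise. Totals per library, 3245273 to 19684208 reads, set the precision. Alternatives were other scalings and filters, DESeq2 1.42.0, limma 3.58.1 on log2(FPKM + 0.1) and log2(FPKM + 1), a replicate block, fewer groups, and leaving out each library. Promoter sequences and starts are from RefSeq (GRCh38.p14) and gene positions from the GENCODE annotation of GRCh38.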

Additional observations from a re-analysis of the deposited data

Results flagged for a closer look

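Responses that differed between conditions by a test of the difference itself (edgeR, adjusted p under 0.05) are listed here by value, with no explanation. Between VIC-1911 with and without olaparib, the difference of log2 fold changes was -0.74 for PARP1, -0.55 for PARP2, 0.71 for PARP3, 0.20 for PARP4, -0.29 for PARP12, 0.34 for TNKS and -0.22 for TNKS2, and among the other genes of the family 1.11 for PARP8 and -0.38 for ZC3HAV1. Between VIC-1911 at 7 days and at 2 days, it was 0.56 for PARP1, 0.50 for PARP2, 0.40 for PARP12, -0.35 for TNKS and -1.15 for PARP8. In the first set the olaparib and combination libraries carry other library numbers than vehicle and VIC-1911. Each of the 2 effects that are subtracted lies within a run of numbers, and the 2 lie in different runs. An effect of VIC-1911 that differs between the runs therefore cannot be told apart from the interaction.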

How the results depend on the processing

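No direction of a called change of a member turned under any alternative. The number of members lower under the combination than under olaparib went from 2 to 1 with upper-quartile scaling, with library size only, with a filter of 1 FPKM, with DESeq2 and in a fit of the 2 groups alone, and lay between 1 and 2 with 1 library left out. Members with a lower interaction went from 4 to 2 with upper-quartile scaling and lay between 2 and 4 with 1 library left out. Members lower under VIC-1911 at 7 days went from 4 to 2 with limma at a pseudocount of 0.1. Members higher under the combination than under VIC-1911 went from 2 to 1 with limma at either pseudocount (0.1 and 1), and lay between 1 (without combination library 2) and 3 (without VIC-1911 library 2) with 1 library left out. Members whose VIC-1911 effect was lower at 7 days than at 2 days went from 1 to 0 with limma at either pseudocount and lay between 1 and 2 with 1 library left out. The cause of these changes was not tested, beyond the smaller number of libraries in the fits that leave some out.

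Labels give replicate numbers, but same-numbered libraries did not deviate together (median correlation 0.0123 at 7 days, from -0.0785 to 0.207). With the replicate number as a block, 79 of 80 values of members kept their call and 1 was gained, PARP12 under the combination (0.18, adjusted p = 0.0462). Depth limits the members with few reads, such as PARP3 and PARP14 at 2 days (at most 78 and 109 counts per library), whose intervals are the widest.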
